A study of Mus musculus with 18 samples.

Results

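Stat4 and 9 further genes of the interleukin 12 and type 1 helper T cell (Th1) axis were followed in the spleen of ICR mice, an outbred stock, aged 10 weeks. The 10 genes were taken by symbol from the 19326 entries of the expression file: the receptor genes Il12rb1 and Il12rb2, the kinase genes Jak2 and Tyk2, Stat4 itself, the transcription factor genes Tbx21 and Eomes, the cytokine gene Ifng, and the interleukin 18 receptor genes Il18r1 and Il18rap. RNA sequencing covered 18 libraries in 6 groups of 3. The control group carried the label control alone, and the AOS group was given AOS at 10 mg/kg, an abbreviation that the labels do not spell out. The HS group had a high fat diet and streptozotocin (STZ), a toxin of the insulin-producing beta cells. HS_AOS had diet, STZ and AOS at 10 mg/kg. HS_AOSFMT and HS_conFMT had diet and STZ with a faecal microbiota transplant (FMT), labelled AOS10mg/kg-FMT in the first and control-FMT in the second. No group is labelled as FMT without diet and STZ, so a transplant effect outside that setting could not be compared. The groups let FMT be read in a spleen exposed to diet and STZ, and AOS with and without that exposure.

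Interleukin 12, released mainly by dendritic cells and macrophages, binds a receptor of the chains encoded by Il12rb1 and Il12rb2 on T and natural killer (NK) cells. The kinases Tyk2 and Jak2, bound to these chains, then phosphorylate the latent transcription factor Stat4, which enters the nucleus and, with T-bet (Tbx21) and Eomes, drives interferon gamma (Ifng) and the interleukin 18 receptor. In this pathway Stat4 is switched on by phosphorylation, which RNA levels do not measure. In the spleen the axis serves defence against intracellular microbes.

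Levels are given in FPKM, in which fragment numbers are divided by transcript length and by library size, so that genes can be set side by side. All 10 genes reached 1 FPKM in at least 3 libraries and were among the 12969 genes tested. The set was chosen by the FPKM values of Stat4, which stood high in HS_AOSFMT against HS. For this reason every value of the 10 genes in a comparison with HS_AOSFMT is a description without a test, while comparisons among the other 5 groups were tested. Of those tested, comparisons with HS still share its libraries with that choice. A gene is called, or said to rise or fall, where its adjusted p from the linear-model package limma was under 0.05.

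The libraries carried spleen markers throughout: the summed level of 8 B cell markers ran from 1560 to 2934 FPKM and that of 8 red pulp macrophage markers from 601 to 939 FPKM. The sequencing depth is unknown, because the file gives no counts, so low levels such as those of Ifng stand without a counting error. The labels do not say that the 3 libraries of a group came from separate animals, and the spread and p-values cover these libraries only. Of the libraries, HS 1 and HS_AOS 1 held 20975 and 23089 summed FPKM of 13 pancreatic acinar markers, against at most 3771 in any other, and control 1 held 15508 summed FPKM of 10 neutrophil markers, against at most 4217 elsewhere. Values with these 3 libraries set aside are given below for Stat4, for some of the other genes and for the pathway count.

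The promoters of the axis are shown because Stat4 differed in level from the genes around it in the pathway. RefSeq start sites (GRCm38.p6) matched 9 of the 10 genes in 12 windows, and the 250 bases upstream of each start are used here. The windows for Stat4 lie at chr1:51986898-51987147 and chr1:52007990-52008239 on the plus strand, those for Il12rb2 at chr6:67376189-67376438 on the minus strand and for Ifng at chr10:118440796-118441045 on the plus strand. Each is written 5′ to 3′, and capitals mark a match to the STAT motif TTCNNNGAA.
Stat4 window 1: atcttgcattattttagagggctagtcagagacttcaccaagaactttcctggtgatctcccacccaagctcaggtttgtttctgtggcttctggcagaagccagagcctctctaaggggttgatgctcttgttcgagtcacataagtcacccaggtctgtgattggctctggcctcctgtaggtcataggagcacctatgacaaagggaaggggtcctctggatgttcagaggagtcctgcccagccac
Stat4 window 2: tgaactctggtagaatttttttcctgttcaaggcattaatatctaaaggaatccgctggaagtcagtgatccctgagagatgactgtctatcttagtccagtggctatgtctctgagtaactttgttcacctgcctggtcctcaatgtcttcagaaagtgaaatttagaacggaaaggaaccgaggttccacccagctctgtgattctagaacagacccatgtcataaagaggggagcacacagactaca
Il12rb2: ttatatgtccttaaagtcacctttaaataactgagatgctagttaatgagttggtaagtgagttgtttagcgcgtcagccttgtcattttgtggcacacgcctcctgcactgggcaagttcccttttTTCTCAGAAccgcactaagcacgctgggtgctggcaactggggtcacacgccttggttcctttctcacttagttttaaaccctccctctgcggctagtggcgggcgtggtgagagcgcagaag
Ifng: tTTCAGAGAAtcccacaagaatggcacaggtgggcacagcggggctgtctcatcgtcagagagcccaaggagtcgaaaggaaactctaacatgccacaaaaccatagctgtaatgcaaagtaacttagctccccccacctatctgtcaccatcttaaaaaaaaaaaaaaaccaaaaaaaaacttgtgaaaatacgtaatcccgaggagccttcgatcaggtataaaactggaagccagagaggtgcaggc

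With the base before the start counted as -1, the motif began at -123 for Il12rb2 and at -249 for Ifng. Il18r1 also had it in 1 of its 3 windows, at -219 and -152. Neither Stat4 window, nor those of Tbx21, Eomes, Il18rap, Jak2 and Tyk2, held these letters on either strand. Of all 32851 windows in the table, 7.02% held the STAT motif. Searches for the palindromic glucocorticoid receptor motif (0.009132% of all windows), the cAMP response motif TGACGTCA (1.546%), the T-box motif TCACACCT (1.12%) and the E-box CACGTG (6.021%), each on both strands, found none in the 12 windows. These are matches of letters in short windows and not measured binding.

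Stat4 was about 3-fold higher in HS_AOSFMT than in every other group, and nearly flat among those. Its gene lies on chromosome 1 (chr1:51987148-52107189, plus strand, GENCODE M21 on mm10). In HS_AOSFMT its level was 48.76, 54.01 and 64.79 FPKM. In HS it was 16.32, 19.57 and 18.05 FPKM, and in HS_conFMT 15.52, 20.63 and 16.81 FPKM. The 3 HS_AOSFMT libraries thus stood far above both groups, and the library nearest to them in any group, HS_AOS 2, had 21.03 FPKM. Control libraries had 15.06, 17.77 and 19.02 FPKM. AOS libraries had 18.64, 18.06 and 19.43 FPKM, and HS_AOS libraries 20.11, 21.03 and 16.89 FPKM. These 3 groups overlapped one another and overlapped HS and HS_conFMT.

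**Figure D1:**
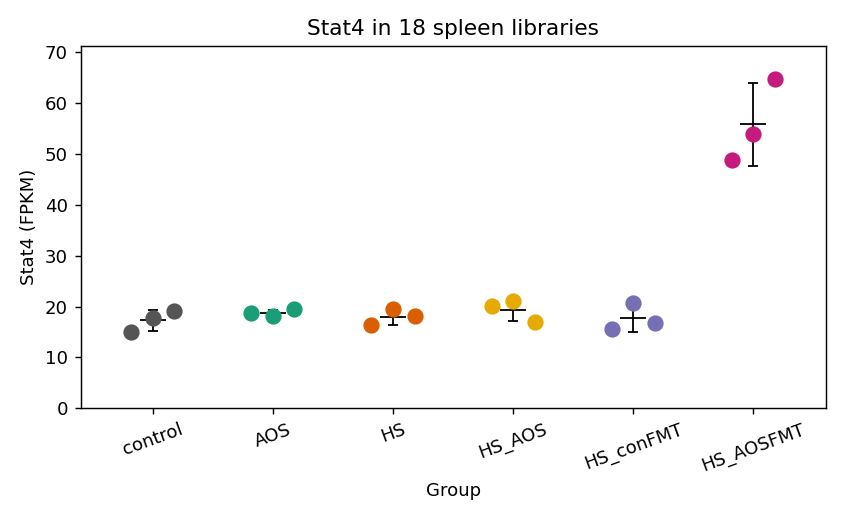
Stat4 level in FPKM (vertical axis) in the 6 groups of spleen libraries (horizontal axis). Each point is 1 library, and the bar with whiskers is the group mean ± SD (n = 3). The 3 HS_AOSFMT libraries lie between 48.76 and 64.79 FPKM and the other 15 between 15.06 and 21.03 FPKM.

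In order of mean level, Stat4 stood at 17.3 ± 2.02 FPKM (SD, n = 3) in control, 17.7 ± 2.66 in HS_conFMT, 17.98 ± 1.63 in HS, 18.7 ± 0.688 in AOS, 19.3 ± 2.17 in HS_AOS and 55.9 ± 8.17 in HS_AOSFMT. No neighbours among the first 5 differed beyond their spread. The difference of HS_AOSFMT from HS was 1.58 on the log2(FPKM + 1) scale (SE 0.124), or 3.11-fold as a ratio of means. Against HS_conFMT it was 1.61 (3.16-fold), and against control 1.63 (3.23-fold). By size of the log2 difference Stat4 ranked 12th from the top among the 12969 genes tested against HS, 10th against HS_conFMT and 14th against control. These 3 comparisons share the HS_AOSFMT libraries. With HS 1, HS_AOS 1 and control 1 set aside, the difference from HS was 1.51.

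The separation of HS_AOSFMT was broad across the transcriptome: 8.03% of tested genes were higher in all 3 of its libraries than in the other 15, and among the 10 genes here Stat4 was the 1 that did so. Between HS_AOSFMT and HS, 9.23% of tested genes were called, 1048 higher and 149 lower, or 1197 in all. That number fell when a library was left out, to 264 without HS 1, 751 without HS 2, 376 without HS 3, 203 without HS_AOSFMT 1, 531 without HS_AOSFMT 2 and 299 without HS_AOSFMT 3. With the values rescaled to leave out haemoglobin and acinar genes, the split was 223 higher and 157 lower, and with quantile normalization 564 and 230. The median difference over all tested genes was 0.10 as deposited and -0.0067 after the rescaling, under which Stat4 stood at 1.46.

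Within the other 5 groups Stat4 passed no test. By limma with Benjamini-Hochberg adjustment over all tested genes, AOS against control gave 0.11 (95% interval -0.15 to 0.38, adjusted p = 0.742). HS_AOS against control gave 0.15 (interval -0.11 to 0.42, adjusted p = 0.797 in limma). HS_conFMT against control gave 0.03 (interval -0.24 to 0.29, limma adjusted p = 0.949). HS against control gave 0.06 (interval -0.21 to 0.32, limma adjusted p = 0.976), although the HS libraries also belong to the comparison that singled Stat4 out. HS_conFMT against HS gave -0.03 (interval -0.29 to 0.23, limma adjusted p = 0.962), and HS_AOS against HS 0.10 (interval -0.17 to 0.36, limma adjusted p = 0.999). Both again use the HS libraries of that comparison, so they are not independent of the choice of Stat4. HS_conFMT against HS_AOS gave -0.13 (interval -0.39 to 0.13, limma adjusted p = 0.968). Diet with STZ, AOS by itself, AOS with diet and STZ, and control-FMT were each set against control or HS in these tests, and none gave a Stat4 call.

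The genes upstream and downstream of Stat4 did not show its pattern. In HS_AOSFMT against HS, the 9 other genes differed by -0.12 to 0.30 on the log2 scale, with 6 of 9 positive and a median of 0.17, where the median of all tested genes was 0.10. With the T cell marker level as a covariate these differences ran from -0.51 for Tbx21 to 0.52 for Il18rap. Il12rb1, Tbx21, Ifng, Il18r1, Eomes and Tyk2 took the other sign in at least 1 of 16 alternatives. With HS 1, HS_AOS 1 and control 1 set aside, the difference was 0.064 for Il12rb1, 0.00046 for Tbx21, -0.20 for Ifng and 0.36 for Il18rap. Groups did not overlap for 4 of the 10 genes (Stat4, Il18r1, Eomes and Jak2), where 38.5% of all tested genes were so separated. Against HS_conFMT the 9 ranged from -0.15 to 0.38, and against control from -0.11 to 0.53. Within HS_AOSFMT the ratio of Stat4 to Il12rb2 was 21.3 to 23.7, while it was 7.54 to 12.9 in the other 15 libraries.

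**Figure D2:**
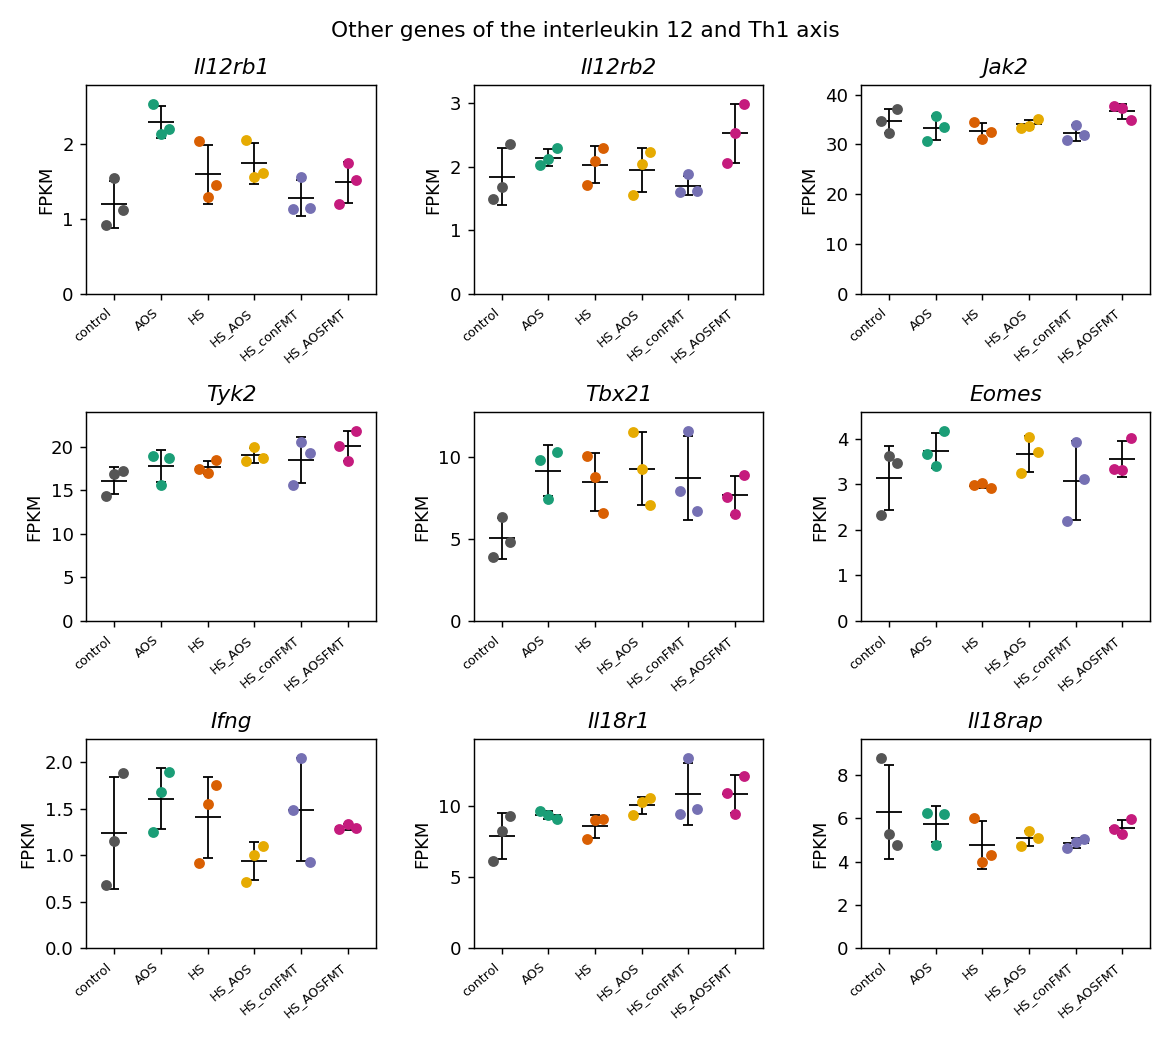
Level in FPKM (vertical axes, each from 0) of the 9 other genes in the 6 groups, with 1 point per library and the mean ± SD (n = 3). None of the 9 has all 3 HS_AOSFMT libraries above the other 15; Il12rb1 is highest in AOS (2.13 to 2.53 FPKM) and Tbx21 lowest in control (3.91 to 6.35 FPKM).

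Il12rb1 encodes the receptor chain shared with the interleukin 23 receptor. Its level was 1.20, 1.74 and 1.52 FPKM in HS_AOSFMT and 2.03, 1.29 and 1.45 FPKM in HS, so these groups overlapped, with a difference of -0.05 (SE 0.138). In AOS it was 2.53, 2.13 and 2.20 FPKM and in control 0.92, 1.54 and 1.11 FPKM. All 3 AOS libraries lay above the other 15, the highest of which had 2.05 FPKM. Of all tested genes, 0.733% were highest in AOS in this way. AOS exceeded control by 0.59 (SE 0.138, 95% interval 0.30 to 0.89), with an unadjusted p of 0.000597 and an adjusted p of 0.183 in limma, which did not pass. With the 3 libraries set aside it was 0.50 (limma adjusted p = 0.428). HS_AOS had 2.05, 1.55 and 1.61 FPKM and HS_conFMT 1.13, 1.55 and 1.14 FPKM, and both overlapped HS.

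Il12rb2 encodes the signalling chain, which docks Stat4 and is found on activated Th1 and NK cells. HS_AOSFMT libraries had 2.06, 2.53 and 2.99 FPKM, and HS libraries 1.72, 2.09 and 2.29 FPKM. The lowest HS_AOSFMT library fell below 2 of the HS libraries, and the difference was 0.21 (SE 0.132). The other 15 libraries ran from 1.5 to 2.36 FPKM, and their group means from 1.70 ± 0.153 in HS_conFMT to 2.15 ± 0.132 in AOS. HS_AOSFMT had the highest mean, 2.53 ± 0.465 FPKM. It overlapped control but not HS_conFMT, from which it differed by 0.38 (SE 0.132), where 28.8% of all tested genes were so separated. Reads near the end of Il12rb2 (chr6:67291318-67376188, minus strand) could be shared with Serbp1, which overlaps it on the other strand, and the sources used here do not say whether counting used the strand.

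The receptor kinases varied less than Stat4. Jak2, bound to the Il12rb2 chain and also to many other cytokine receptors, ran from 30.74 to 37.69 FPKM over all 18 libraries. It had 37.69, 37.30 and 34.97 FPKM in HS_AOSFMT and 34.49, 31.11 and 32.47 FPKM in HS, a difference of 0.16 (SE 0.0718). The ranges did not overlap with HS but did with control, at 34.72, 32.36 and 37.19 FPKM. They also did not overlap with HS_conFMT, with a difference of 0.18 (SE 0.0718), as for 28.8% of all tested genes. Tyk2, bound to the Il12rb1 chain and to the type I interferon receptor, had 20.04, 18.39 and 21.80 FPKM in HS_AOSFMT and 17.47, 17.02 and 18.50 FPKM in HS, a difference of 0.17 (SE 0.104). Its lowest HS_AOSFMT library lay within the HS range. HS_AOSFMT also overlapped HS_conFMT for Tyk2 but not control, with a difference of 0.30 (SE 0.104), where 31.6% of all tested genes were so separated. Tyk2 group means ran from 16.1 ± 1.56 in control to 20.1 ± 1.71 in HS_AOSFMT, so outside HS_AOSFMT it stood near the level of Stat4, with Jak2 above both.

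Tbx21 encodes T-bet, the factor that defines Th1 cells and acts beside Stat4 at Ifng. In HS_AOSFMT it had 7.52, 6.54 and 8.88 FPKM, and in HS 10.06, 8.75 and 6.57 FPKM. These overlapped, with a difference of -0.12 (SE 0.213). Control libraries had 3.91, 6.35 and 4.82 FPKM and lay below all other 15 libraries, which ran from 6.54 to 11.56 FPKM, and 0.37% of all tested genes were lowest in control in this way. Against control the log2 difference was 0.76 in AOS, 0.77 in HS_AOS, 0.68 in HS_conFMT and 0.65 in HS (SE 0.213 each). These 4 comparisons share the control libraries, and their limma adjusted p-values were 0.231, 0.343, 0.292 and 0.617, so none passed. With the 3 libraries set aside the differences were 0.62, 0.48, 0.54 and 0.39, and none passed. As a result of both patterns the ratio of Stat4 to Tbx21 was 6.48 to 8.26 in HS_AOSFMT and 1.62 to 3.95 in the other 15 libraries.

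Eomes, which encodes the T-box factor of NK cells and memory CD8 T cells, had 3.33, 3.32 and 4.01 FPKM in HS_AOSFMT and 2.98, 3.02 and 2.92 FPKM in HS. The groups did not overlap, with a difference of 0.19 (SE 0.150), but AOS at 3.66, 3.40 and 4.17 FPKM and HS_AOS at 3.25, 4.03 and 3.70 FPKM covered the same range as HS_AOSFMT. Ifng, the main product of the axis, had 1.28, 1.34 and 1.29 FPKM in HS_AOSFMT. HS libraries had 0.92, 1.55 and 1.75 FPKM and control libraries 0.68, 1.15 and 1.88 FPKM. The HS_AOSFMT values lay inside both ranges, and the difference from HS was -0.05 (SE 0.198). Across the other 15 libraries Ifng ran from 0.68 to 2.04 FPKM, and its group means lay between 0.937 ± 0.203 in HS_AOS and 1.61 ± 0.326 in AOS.

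Il18r1 and Il18rap encode the receptor chains for interleukin 18, which acts with interleukin 12 to raise interferon gamma. Il18r1 had 10.90, 9.44 and 12.14 FPKM in HS_AOSFMT and 7.66, 9.0 and 9.09 FPKM in HS. The groups did not overlap and differed by 0.30 (SE 0.138). HS_conFMT, at 9.45, 13.36 and 9.77 FPKM, was as high, and its limma comparison with HS gave 0.30 (adjusted p = 0.774). That test shares the HS libraries with the choice of the set. Control had the lowest mean, 7.88 ± 1.61 FPKM, and HS_conFMT and HS_AOS exceeded it by 0.42 (limma adjusted p = 0.311) and 0.33 (limma adjusted p = 0.573), neither of which passed. Il18rap had 5.49, 5.27 and 5.95 FPKM in HS_AOSFMT and 6.02, 3.98 and 4.28 FPKM in HS, a difference of 0.21 (SE 0.168). It was highest in control 1, at 8.77 FPKM, the library with the high neutrophil markers, and the other 2 control libraries had 5.27 and 4.78 FPKM. The part of those cells in the Il18rap level was not tested.

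Across the 7 tested comparisons, 0 of the 10 genes passed an adjusted p of 0.05 in limma. Those with HS share the HS libraries with the comparison that chose the set. Of all tested genes, 0.00771% were called in AOS against control, 0.0925% in HS_AOS against control, 0.0386% in HS_conFMT against control, 0.0154% in HS against control and 0.00771% in HS_conFMT against HS, and 0% in HS_conFMT against HS_AOS and in HS_AOS against HS. At an unadjusted p under 0.05 there were 4 of the 10 genes in HS_AOS against control (Tbx21, Il12rb1, Il18r1 and Tyk2), where 7.83% of all tested genes reached it. AOS against control and HS_conFMT against control had 2 each, beside 11.3% and 11.7% of all genes. HS against control and HS_conFMT against HS had 1 each, beside 6.4% and 6.32%. HS_conFMT against HS_AOS and HS_AOS against HS had 0, beside 5.15% and 5.2%. In HS_AOS against control the 95% interval of Tbx21 ran from 0.31 to 1.22.

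Stat4 also stood apart from most of its own family, whose factors share a mode of activation by JAK kinases. Stat2, a factor of type I interferon signalling, had means of 26.1 ± 1.84 FPKM in HS_AOSFMT and 29.6 ± 9.58 FPKM in HS. Stat5a had means of 11.02 ± 0.405 and 11.6 ± 0.899 FPKM, and Stat5b, its close relative in interleukin 2 signalling, 23.7 ± 1.37 and 21.9 ± 0.564 FPKM. None of these 3 passed, with limma adjusted p-values of 0.741, 0.677 and 0.437.

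Stat3, which carries interleukin 6 and interleukin 10 signals, rose from 38.48, 44.49 and 44.60 FPKM in HS to 55.28, 57.46 and 61.18 FPKM in HS_AOSFMT, by 0.44 (SE 0.129, limma adjusted p = 0.0453). Groups did not overlap. That call held in 3 of 16 alternatives, was lost on leaving out any 1 of the 6 libraries, and had a limma adjusted p of up to 0.166 there. Stat6, the factor of interleukin 4 signalling, stood at 77.89, 76.75 and 82.55 FPKM in HS_AOSFMT against 43.78, 63.41 and 63.60 FPKM in HS, and did not pass (0.49, SE 0.162, limma adjusted p = 0.0684). Stat4 had the largest difference of the 6 STAT genes described, but it was chosen for its height in this same comparison.

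**Figure D3:**
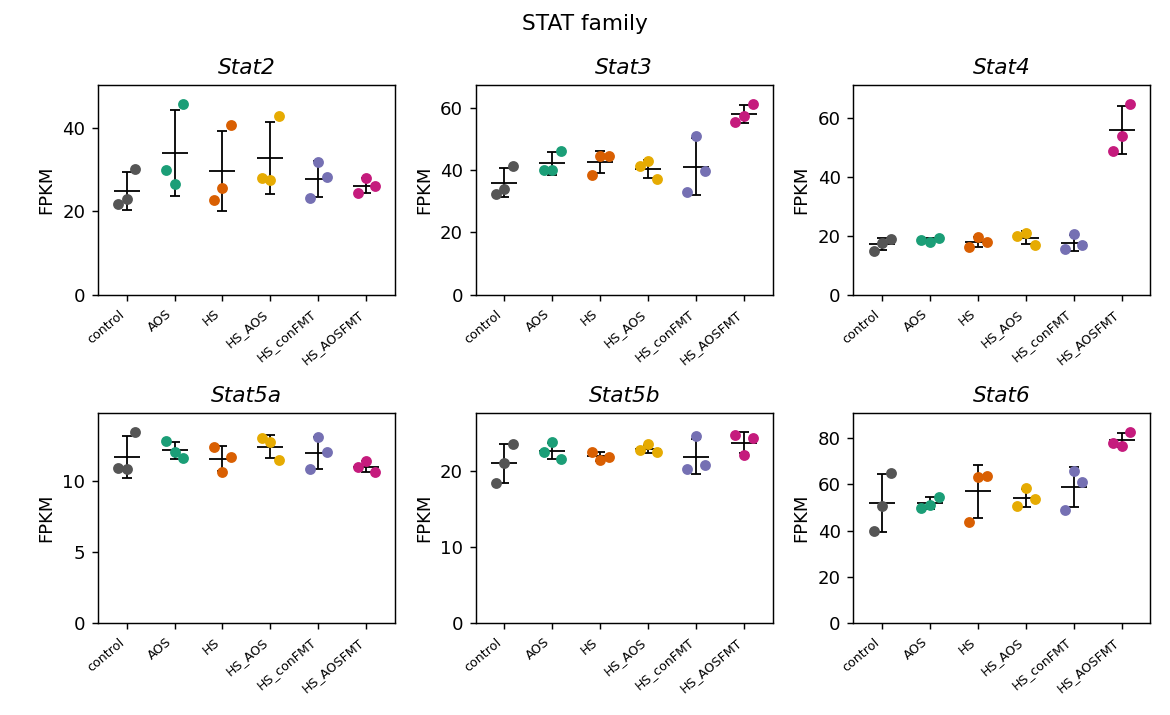
Level in FPKM (vertical axes, each from 0) of 6 STAT genes in the 6 groups, with 1 point per library and the mean ± SD (n = 3). Stat4, Stat3 and Stat6 have their 3 highest libraries in HS_AOSFMT, and Stat2, Stat5a and Stat5b overlap other groups.

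Of 53 further genes of the pathway, 49 were tested, and 8 rose and 1 fell in HS_AOSFMT against HS, which is 18.4% of those tested beside the 9.23% of all genes. The median difference was 0.24 against 0.10 for all genes, and 40 of 49 were positive. With the T cell covariate these became 0.065 and 27 of 49, and with the rescaling 0.13 and 35 of 49. A positive lean was not particular to HS_AOSFMT. Against control, 44 of 49 were positive in AOS, 43 in HS_conFMT, 41 in HS_AOS and 35 in HS. These share the control libraries, and their medians were 0.30, 0.18, 0.18 and 0.20, beside 0.046, 0.024, 0.028 and -0.015 for all genes. In HS_AOS against HS 29 were positive, and in HS_conFMT against HS and against HS_AOS 26 each. The genes left untested for low levels were Il23a, Il27, Il23r and Csf2. Both interferon gamma receptor genes were among those called in HS_AOSFMT against HS. Ifngr1, the ligand-binding chain, rose from 57.75, 67.69 and 58.13 FPKM in HS to 101.72, 88.51 and 97.36 FPKM (0.64, SE 0.104, limma adjusted p = 0.00427), and the groups did not overlap. Ifngr2, its signalling partner, had means of 41.5 ± 2.46 and 53.3 ± 1.13 FPKM (limma adjusted p = 0.0328).

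Socs3, a feedback inhibitor of cytokine receptors induced by Stat3, rose from a mean of 11.01 ± 0.648 to 20.99 ± 4.89 FPKM (0.85, limma adjusted p = 0.0134). Bhlhe40, a transcription factor that favours interferon gamma over interleukin 10 in T cells, rose from 15.3 ± 1.77 to 25.1 ± 2.37 FPKM (limma adjusted p = 0.0157). Runx1, a factor of T cell development, rose from 8.94 ± 0.193 to 12.3 ± 1.18 FPKM (limma adjusted p = 0.0166). Havcr2, the checkpoint receptor Tim-3 of Th1 and myeloid cells, rose from 6.88 ± 0.947 to 11.02 ± 0.589 FPKM (limma adjusted p = 0.0222). The other 2 that rose were Stat3 and Fasl, and the 1 that fell was Zeb2, a partner of T-bet in terminal differentiation, from 16.6 ± 0.588 to 12.7 ± 1.18 FPKM (limma adjusted p = 0.0437).

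Among ligand and chemokine genes named after their values were seen, Il12a, Il12b, Il18, Cxcr3 and Cxcl9 did not pass between HS_AOSFMT and HS. Il12a, the p35 subunit of interleukin 12, had means of 9.0 ± 1.01 and 8.62 ± 2.02 FPKM (limma adjusted p = 0.812). Il12b, the p40 subunit, had 1.84, 1.98 and 2.14 FPKM in HS_AOSFMT and 1.23, 1.24 and 1.94 FPKM in HS, which overlapped (limma adjusted p = 0.431). Like Il12rb1, it had its highest mean in AOS, with 2.82, 1.87 and 2.19 FPKM there and 0.75, 1.17 and 0.57 FPKM in control, a difference of 0.85 that did not pass (limma adjusted p = 0.215). Il18 had means of 35.4 ± 4.56 and 29.4 ± 6.31 FPKM (limma adjusted p = 0.276). Cxcr3, the chemokine receptor of Th1 cells and a target of T-bet, had means of 14.6 ± 1.60 and 16.7 ± 8.07 FPKM. Its ligand gene Cxcl9, induced by interferon gamma, had 17.0 ± 3.43 and 13.8 ± 1.75 FPKM, and neither was called.

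**Figure D4:**
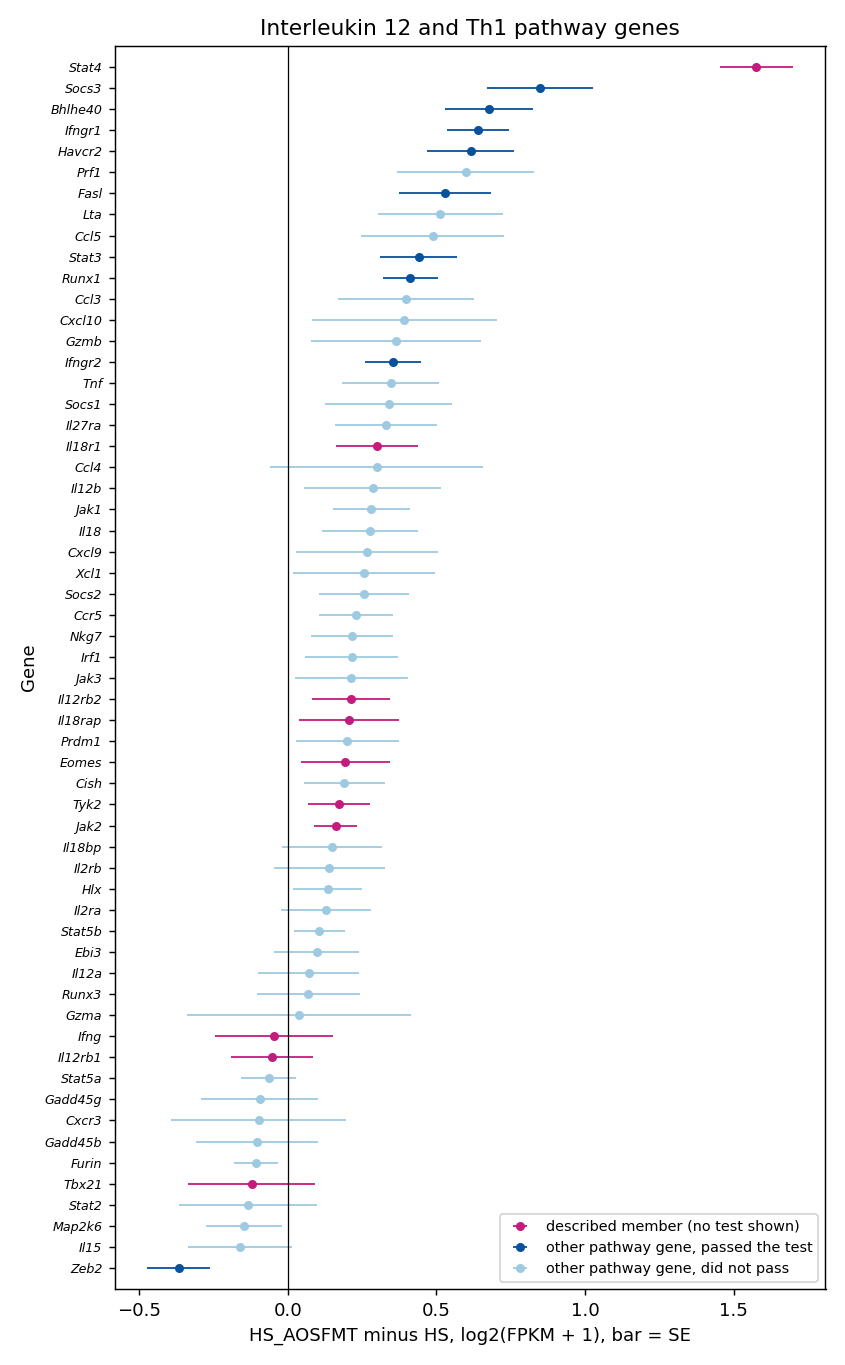
HS_AOSFMT minus HS as a difference of mean log2(FPKM + 1) (horizontal axis) for the 10 described genes and other tested pathway genes (vertical axis, sorted by size), with bars of 1 SE. Stat4 lies at 1.58, beyond all others on the plot; the next is Socs3 at 0.85, and the lowest is Zeb2 at -0.37.

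Against HS_conFMT, 5 of the 49 rose and 1 fell, 12.2% of the list beside 5.85% of all genes: Ifngr1, Socs3, Bhlhe40, Runx1 and Stat3 rose and Zeb2 fell. In HS_conFMT against control, a comparison without HS or HS_AOSFMT, 0 of 49 passed in limma, where 0.0386% of all genes did. At an unadjusted p under 0.05 there were 10 of the 49, beside 11.7% of all genes. The count of 9 against HS was sensitive to single libraries. It was 2 without HS 1, 6 without HS 2, 4 without HS 3, 3 without HS_AOSFMT 1, 4 without HS_AOSFMT 2 and 1 without HS_AOSFMT 3. The rescaling without haemoglobin and acinar genes left 4, and a T cell marker covariate left 1. Calls over all genes fell in the same fits, from 1197 to the numbers given above without a library, to 380 with the rescaling and to 166 with the covariate. Ifngr1 remained called in 15 of 16 alternatives and was lost with that covariate. With each of the 6 libraries left out in turn, Socs3 was called in 4 of 6 fits, Bhlhe40, Runx1 and Havcr2 in 3 each, Ifngr2 in 1, and Stat3, Fasl and Zeb2 in 0.

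Genes of other helper programs were read beside the Th1 axis. Of 20, 13 were tested and 2 rose in HS_AOSFMT against HS, 15.4% beside the 9.23% of all genes: Il4ra, the interleukin 4 receptor chain, from 29.7 ± 0.704 to 41.1 ± 4.01 FPKM (limma adjusted p = 0.0132), and Ahr, a ligand-sensing factor of Th17 and innate lymphoid cells, from 3.30 ± 0.242 to 4.99 ± 0.191 FPKM (limma adjusted p = 0.0234). Both calls were lost with the rescaling and with the T cell covariate. Il4ra was also lost without HS_AOSFMT 1 or HS_AOSFMT 3, and Ahr without HS 1, HS 3, HS_AOSFMT 1 or HS_AOSFMT 3. Bcl6, the factor of follicular helper T cells and germinal centre B cells, had means of 23.4 ± 0.441 and 18.5 ± 0.586 FPKM and did not pass (limma adjusted p = 0.0939). The cytokine genes of the Th2 and Th17 programs, Il4, Il5, Il13, Il17a, Il17f and Il22, were too low to test.

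In whole spleen, more cells of a type and more RNA per cell cannot be told apart. T cell markers stood higher in HS_AOSFMT than in HS for 17 of 17 genes, with 5 called (Il7r, Lat, Cd3d, Cd3g and Lck, 29.4% beside the 9.23% of all genes) and a median of 0.46. Against HS_conFMT 16 of 17 were positive, but 1 was called, 5.88% beside the 5.85% of all genes. Against control 13 of 17 were called, 76.5% beside 12%. HS_conFMT itself stood above HS for 16 of 17, with 0 called. The summed level of the T cell markers was 878.5 to 1080 FPKM in HS_AOSFMT, 611 to 773 FPKM in HS and 431 to 915 FPKM over the other 15 libraries, and none of the 17 was at 0 in any library. The difference for Stat4 was larger than for these markers. Stat4 minus the mean log2 level of the list was -0.013 to 0.28 in HS_AOSFMT and -1.11 to -0.42 in the other 15. As a ratio, Stat4 to the T cell receptor component Cd3e was 1.07 to 1.30 in HS_AOSFMT and 0.445 to 0.870 elsewhere. With the T cell marker level as a covariate the Stat4 difference from HS was 1.29 (SE 0.109). Of the 5 calls against HS, that of Il7r, the interleukin 7 receptor of resting T cells, held in 16 of 16 alternatives (16.6 to 39.4 FPKM, limma adjusted p = 0.00286). The other 4 each lost it in 3 or more, including the fits without HS_AOSFMT 1 and without HS_AOSFMT 3. Another of these losses came with the T cell covariate, which is built from the list that holds them.

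NK and cytotoxic cell markers moved less. Of 17 tested in HS_AOSFMT against HS, 16 were positive and 1 was called (Klrd1), 5.88% beside the 9.23% of all genes. The median was 0.27, against 0.10 for all genes, and 13 were positive after quantile normalization and also after the rescaling. HS itself stood low: against control it was positive for 1 of 17 (median -0.28). HS_AOSFMT was positive for 10 of 17 against HS_conFMT (median 0.078, all genes 0.062) and for 8 of 17 against control (median -0.077, all genes 0.090). The Klrd1 call held in 4 of 16 alternatives and was lost on leaving out any of the 6 libraries except HS_AOSFMT 2. These 16 include the NK marker covariate, which is built from the list that holds Klrd1. The summed level of the NK markers was 310 to 366 FPKM in HS_AOSFMT and 264 to 281 FPKM in HS, inside the 252 to 436 FPKM of the other 15 libraries, and none was at 0 in any library. Ncr1, named apart from the rule of smallest p, encodes the NK receptor NKp46 and had means of 7.67 and 7.50 FPKM. Stat4 minus the mean log2 level of this list was 2.40 to 2.84 in HS_AOSFMT and 0.77 to 1.60 elsewhere. As a share of all FPKM, erythroid markers stood at 13.0% to 17.7% in HS_AOSFMT and 27.1% to 29.3% in HS, and acinar markers at 0.00051% to 0.0083% and 0.31% to 2.78%. Neutrophil markers, at 1505 to 2059 summed FPKM in HS_AOSFMT and 879 to 2316 FPKM in HS, overlapped.

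**Figure D5:**
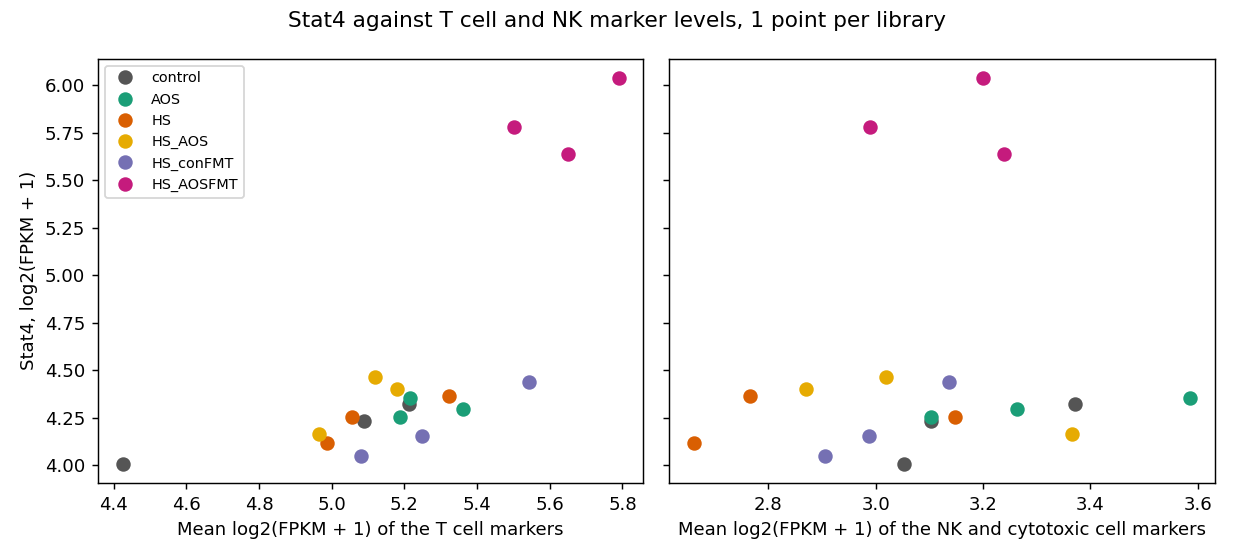
Stat4 level (vertical axis, log2(FPKM + 1)) against the mean log2(FPKM + 1) of 17 T cell markers (left, horizontal axis) and of 17 NK and cytotoxic cell markers (right), with 1 point per library coloured by group. The 3 HS_AOSFMT libraries lie above the other 15 in both panels; at a T cell marker level near 5.5, an HS_conFMT library and an HS_AOSFMT library have Stat4 levels of 20.63 and 54.01 FPKM.

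None of the 6 genes with the pattern most like Stat4 was on the pathway list, but that list held only 49 of the 12969 tested genes. By Pearson correlation of log2(FPKM + 1) over the 18 libraries, the 6 highest of the 12969 tested genes were Rundc3b (r = 0.975, Spearman rho 0.754), Pde3b (0.973, rho 0.744), Nphp4 (0.967, rho 0.750), Inpp5d (0.965, rho 0.785), Ppp1r21 (0.963, rho 0.771) and Sorl1 (0.946, rho 0.822). Runx1, which is on that list, ranked 14th (r = 0.934, rho 0.805, and 0.694 without HS_AOSFMT), and is named here after its value was seen. These values rest on the 3 HS_AOSFMT libraries, which form a cluster of their own. Over the 15 others, r of the 6 genes with Stat4 was 0.639, 0.670, 0.629, 0.724, 0.665 and 0.621. Pde3b encodes a phosphodiesterase that breaks down cAMP, and had 17.98, 18.09 and 18.62 FPKM in HS_AOSFMT and 6.40, 7.73 and 7.08 FPKM in HS. Inpp5d encodes SHIP1, a lipid phosphatase of blood cells, and had 104.75, 91.94 and 98.21 FPKM in HS_AOSFMT and 52.81, 52.24 and 51.28 FPKM in HS. Of the axis, Il12rb2 ranked 1805th (r = 0.65), Tyk2 2752nd (0.57), Jak2 3114th (0.53) and Il18r1 3796th (0.47), and Il12rb1 came last of the 9 at rank 8493 (r = 0.0022).

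Without the HS_AOSFMT libraries the order within the axis was another. Over these 15, r with Stat4 was 0.75 for Eomes, 0.66 for Tyk2, 0.61 for Il18r1 and 0.57 for Tbx21, and -0.40 for Il18rap. T cell marker levels varied over the same libraries, with r of 0.70 to Stat4, 0.80 to Il18r1 and 0.65 to Tbx21, and their part in these relations was not tested. All of these are correlations over libraries that share groups, and no p is attached.

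Another annotated transcript overlaps the end of Stat4 on the same strand, and reads in the shared stretch cannot be assigned to one of them from this file.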

How the data were processed

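RNA of frozen mouse spleen was extracted with Trizol and a column kit and made into 18 Illumina libraries, per the labels' protocols. The submitters' processing notes name Bowtie 0.12.2 and the build mm10; for the counter, annotation and filters, nothing is stated in the sources used here. Values as deposited were read as FPKM, a unit inferred from the values, since the file names none; depth is unknown. Symbols on more than 1 line (3) were kept as separate entries.

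The 12969 genes that reached 1 FPKM in 3 or more libraries were fitted with limma 3.58.1 in R 4.3.3 on log2(FPKM + 1), a scale that understates changes of low genes. All 18 libraries entered, with group as the sole factor, and eBayes used trend and robust (12 residual degrees of freedom, 3.38 prior). Tests were two-sided and Benjamini-Hochberg adjusted within a comparison, with a threshold of 0.05. The procedure was tested on simulated data with noise drawn independently for each gene, so differences that run through a whole library were not covered. Alternatives covered the pseudocount (0.1), filter, scaling, fit, replicate block, marker covariates and each library left out. The NK marker covariate and the fit without HS 1, HS_AOS 1 and control 1 were chosen after seeing the data.

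The members and lists were chosen with earlier results of these data known. All members and 6 STAT genes are named, and some results are not reported here; other lists give up to 5 genes with the smallest p in HS_AOSFMT vs HS, and the 6 genes most correlated with Stat4. The ligand, chemokine and other called genes named were chosen after their values were seen.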

Additional observations from a re-analysis of the deposited data

How the results depend on the processing

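Stat4 in HS_AOSFMT against HS kept its direction in all 16 alternatives (1.29 to 1.67 on the log2 scale). The lowest value, 1.29, came with the T cell marker level as a covariate, which did not overlap between these groups, and the cause was not tested. Against HS_conFMT it ran from 1.41 to 1.72. The 10 genes gave 0 calls in the 7 tested comparisons under every alternative run, over 1120 results; 79 of these had the other sign, and the smallest adjusted p was 0.0844 in limma. For Stat4, whose differences among the other 5 groups were near 0, the sign turned with the T cell covariate in AOS against control (-0.078), HS_conFMT against control (-0.19) and HS against control (-0.061). With 3 libraries set aside it turned in HS_conFMT against control (-0.065). Leaving out 1 library at a time gave -0.086 to 0.11 in HS_conFMT against control and -0.034 to 0.12 in HS against control. The pathway count of 9 in HS_AOSFMT against HS was 4 when rescaled, 1 with the T cell covariate, 5 with the NK covariate and 3 with 3 libraries set aside, and leaving out 1 library gave 1 to 6. In HS_conFMT against control that count was 0, where 0.0386% of all genes were called, and 0 to 1 with a library left out. Replicate numbers were not taken to pair the libraries: of 45 same-numbered pairs, 15 correlated above 0.1 (r from -0.37 to 0.49). The exception was HS with HS_AOS, where all 3 did (0.487, 0.287 and 0.372), and there the replicate block also gave 0 calls in limma. Each of 8 of the 18 libraries correlated best with one of its own number. With the replicate block the Stat4 difference from HS was 1.58 (SE 0.112) and the pathway count was 10. Low genes such as Ifng, Il12rb1 and Il12rb2 lie where log2(FPKM + 1) compresses differences, and their depth is unknown.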
